A study of Mus musculus with 8 samples.

Results

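Genes that mark the layers of the cerebral cortex were examined in the cortex of Nova2 knockout (Nova2 KO) and wild type mice. The list held 35 genes, 13 of them known from the upper layers and 22 from the deep layers or the subplate. A member was measured through the probe sets of an exon array that named this gene and no other: 693 of the 391597 probe sets on the array. For each array, the median log2 signal over those of its probe sets that were bright enough to be kept (659 of the 693) served as the gene value. In this way 34 of the 35 members were measured among 11992 genes tested, all 13 upper-layer and 21 deep-layer members, with 4 to 48 kept probe sets each. Cplx3, a complexin of the subplate, had no probe set that named it alone here.

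The 2 groups were wild type and Nova2 KO mice of the CD1 strain, with 4 mice each and cortex taken at postnatal day 10. Each mouse was measured on 1 array. The labels give neither the deleted part of Nova2 nor whether its loss was limited to some cells, so the cortex of each mouse was compared as a whole. In whole tissue, fewer cells of a type and less RNA per cell cannot be told apart.

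Projection neurons of the cortex are born in order, with deep layers first and upper layers later, and each layer keeps its own set of transcription factors. Fezf2, Bcl11b and Tbr1 direct the neurons that send axons out of the cortex, whereas Cux1, Cux2 and the POU factors Pou3f2 and Pou3f3 belong to neurons that connect within it. By postnatal day 10 migration into the layers is over and the neurons are forming synapses. Nova2, an RNA-binding protein of neurons, controls which exons they splice in, and it is known to take part in the migration of cortical neurons.

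The targeted gene was looked at first. Nova2 probe set 5294108 lay between 8.53 and 8.87 log2 on the wild type arrays and between 6.28 and 7.26 log2 on the Nova2 KO arrays, so that the groups did not overlap. The difference was -1.82 log2 (SE 0.22), with a limma adjusted p of 0.0786 over all kept probe sets. Of the 16 Nova2 probe sets others went the opposite way: 4414499 lay at 7.49 to 7.84 log2 in wild type against 8.27 to 8.46 log2 in Nova2 KO (0.70 log2, SE 0.13, limma adjusted p = 0.321), and 4355944 differed by 0.40 log2 (SE 0.14). The Nova2 gene value differed by -0.016 log2 (SE 0.11, limma adjusted p = 0.975). Array medians ran from 7.02 (wild type 4) to 7.37 log2 (Nova2 KO 2), and both arrays numbered 4 were low.

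The promoters of members whose 4 Nova2 KO values all lay above the 4 wild type values are shown first. There were 5 such members among the 34 measured, against 5.06% of all genes. None of them passed the threshold for gene expression given below. RefSeq promoters (build GRCm38.p6, the C57BL/6J reference and not the CD1 strain) were at hand for 3 of them, Mef2c, Fezf2 and Sox5. Each sequence is the 250 bases before an annotated start, read 5′ to 3′ on the strand of the gene, and Mef2c has 3 annotated starts. Capitals mark the only motif match found.
Mef2c start 1, chr13:83503784-83504033, plus strand: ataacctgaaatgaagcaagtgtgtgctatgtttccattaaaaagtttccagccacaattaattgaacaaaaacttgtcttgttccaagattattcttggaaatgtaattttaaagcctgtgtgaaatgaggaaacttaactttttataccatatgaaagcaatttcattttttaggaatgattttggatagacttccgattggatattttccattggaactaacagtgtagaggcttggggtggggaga
Mef2c start 2, chr13:83523406-83523655, plus strand: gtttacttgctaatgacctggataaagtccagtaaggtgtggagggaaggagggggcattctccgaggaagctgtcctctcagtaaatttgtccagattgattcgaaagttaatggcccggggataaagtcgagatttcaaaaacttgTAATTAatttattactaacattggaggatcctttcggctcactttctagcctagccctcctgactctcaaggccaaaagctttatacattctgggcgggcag
Mef2c start 3, chr13:83573357-83573606, plus strand: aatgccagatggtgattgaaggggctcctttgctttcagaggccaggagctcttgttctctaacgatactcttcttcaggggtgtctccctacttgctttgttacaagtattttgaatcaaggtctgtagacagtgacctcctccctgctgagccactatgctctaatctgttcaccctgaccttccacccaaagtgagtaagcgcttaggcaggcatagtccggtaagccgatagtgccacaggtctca
Fezf2, chr14:12345866-12346115, minus strand: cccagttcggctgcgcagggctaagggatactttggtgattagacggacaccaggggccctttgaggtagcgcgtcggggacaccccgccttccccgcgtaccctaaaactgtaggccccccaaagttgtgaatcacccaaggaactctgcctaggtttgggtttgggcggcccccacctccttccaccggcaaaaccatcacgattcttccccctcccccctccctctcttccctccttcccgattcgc
Sox5, chr6:143947107-143947356, minus strand: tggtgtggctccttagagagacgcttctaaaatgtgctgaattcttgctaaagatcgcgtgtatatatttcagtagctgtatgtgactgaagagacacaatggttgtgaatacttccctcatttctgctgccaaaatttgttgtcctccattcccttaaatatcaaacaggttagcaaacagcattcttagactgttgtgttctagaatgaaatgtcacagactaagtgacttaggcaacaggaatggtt

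Both strands were searched for motifs of factor families that the members belong to: the POU octamer ATGCAAAT, the forkhead site TGTTTAC, the SOX site AACAAT, the homeodomain site TAATTA and the MEF2 box. The match was a homeodomain site 96 bases before the second start of Mef2c, and no other motif was found in these windows. Among 32851 promoter windows of this length, 4.84% held the homeodomain site, 9.42% the SOX site, 3.17% the forkhead site, 2.92% the MEF2 box and 1.60% the octamer. The windows differed in composition, from 33.6% G and C with 1 CG dinucleotide (Mef2c start 1) to 61.2% with 14 (Fezf2). Which start a Mef2c probe set belongs to was not analysed here.

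None of the 34 measured members passed the threshold for gene expression, an adjusted p of 0.05 over all genes (limma), at which 0.208% of all genes were called. At an unadjusted p under 0.05, 7 of the 34 members were higher in Nova2 KO and 0 were lower, where 7.86% of all genes were higher and 3.72% lower. The 7 were Mef2c and Lmo4 of the upper list and Foxp2, Fezf2, Ldb2, Id2 and Sox5 of the deep list. The lowest adjusted p of a member was 0.263, for Mef2c. All 4 Nova2 KO values lay above all 4 wild type values in 5 of 34 members, against 5.06% of all genes, and all lay below in 0 members, against 2.5% of all genes.

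Deep-layer and upper-layer members were placed differently around 0. Of the 21 deep-layer members 20 were above 0, with a median difference of 0.17 log2 and a range from -0.040 (Ctgf) to 0.38 log2 (Id2). Of the 13 upper-layer members 7 were above and 6 below 0, with a median of 0.031 log2 and a range from -0.22 (Rorb) to 0.41 log2 (Lmo4). Among all genes tested 55.4% were above 0 and the median was 0.022 log2. The medians of the upper-layer and deep-layer members thus differed by -0.13 log2 (upper minus deep). The deep-layer count was 20 with median centring of the arrays and 19 with quantile normalization, and the upper-layer count was 7 with either. The upper-layer median changed sign in 4 settings (-0.020 log2 without wild type 1, -0.0028 without Nova2 KO 1, -0.018 with the filter at the 50th percentile and -0.016 with the mean over probe sets) and was 0.063 log2 without Nova2 KO 4 and 0.058 log2 without wild type 2. Members are not replicates, and this contrast between layers was not tested. They were chosen with earlier results of these data known, so the counts here and below are no independent check of the contrast.

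**Figure D1:**
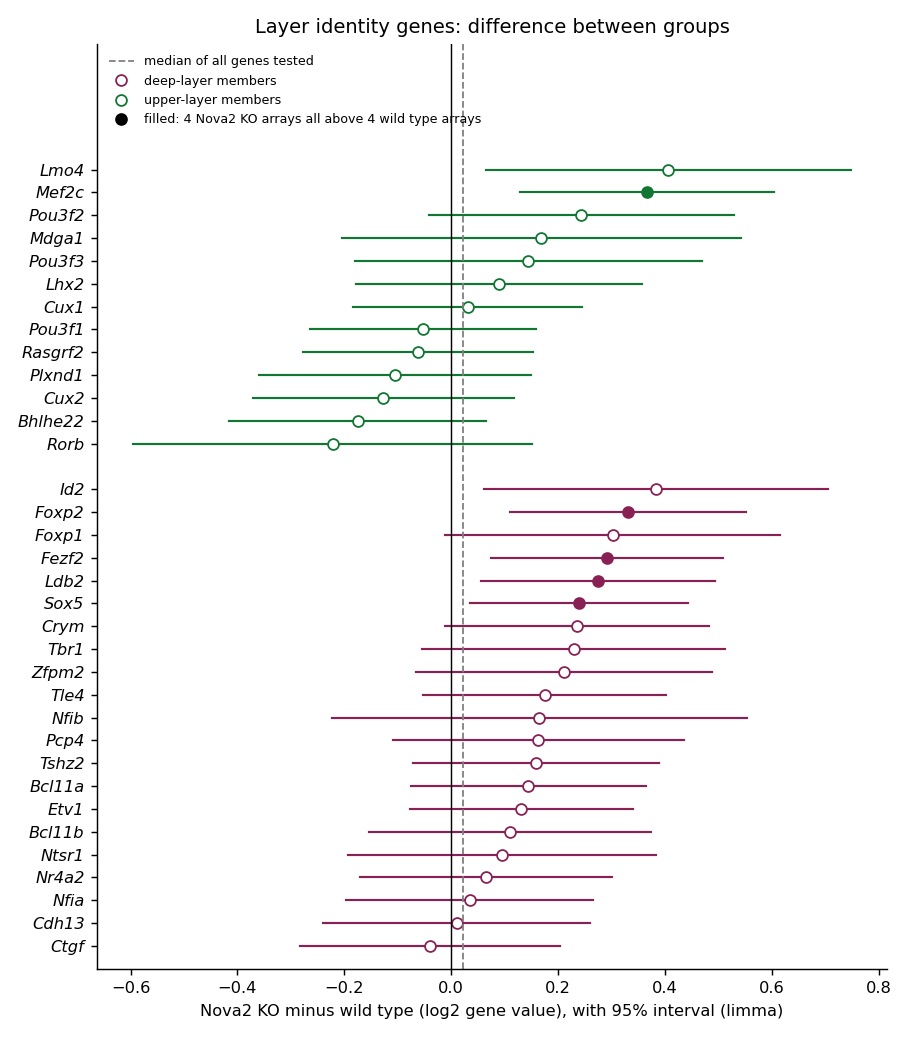
Difference of each measured layer gene between Nova2 KO and wild type (x axis, log2 gene value) with its 95% interval from limma, 13 upper-layer members in green and 21 deep-layer members in purple. Filled points are the 5 members whose 4 Nova2 KO arrays all lay above the 4 wild type arrays, and the dashed line is the median of all genes tested (0.022 log2). The deep-layer points lie to the right of 0 except Ctgf (-0.040 log2), while the upper-layer points spread to both sides.

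The same was seen array by array. Each gene was centred on its mean over the 8 arrays, and the median was taken over the members. For the deep-layer members this median was -0.083, -0.058, -0.079 and -0.095 log2 on wild type arrays 1 to 4, and 0.12, 0.021, 0.23 and 0.0029 log2 on Nova2 KO arrays 1 to 4. All Nova2 KO arrays were above all wild type arrays, with Nova2 KO 3 the highest and Nova2 KO 4 the lowest of its group. For the upper-layer members it was 0.040, -0.0022, 0.086 and -0.045 log2 in wild type against 0.12, 0.039, 0.14 and -0.18 log2 in Nova2 KO, so that the groups overlapped and Nova2 KO 4 was the lowest array of all. The median over all genes was 0.0068, 0.019, 0.031 and -0.097 log2 on wild type arrays 1 to 4. On Nova2 KO arrays 1 to 4 it was 0.048, 0.019, 0.050 and -0.055 log2, so that both arrays numbered 4 were low. The deep-layer median lay close to that of all genes on wild type 4 and on Nova2 KO 2. Set against all genes, the deep-layer members therefore hardly parted these arrays. The part of the all-gene median in the layer medians was not tested. The upper-layer minus deep-layer median was 0.050 to 0.17 log2 in wild type against -0.18 to 0.018 log2 in Nova2 KO. The lowest wild type array (wild type 4) stood above the highest Nova2 KO array (Nova2 KO 2).

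**Figure D2:**
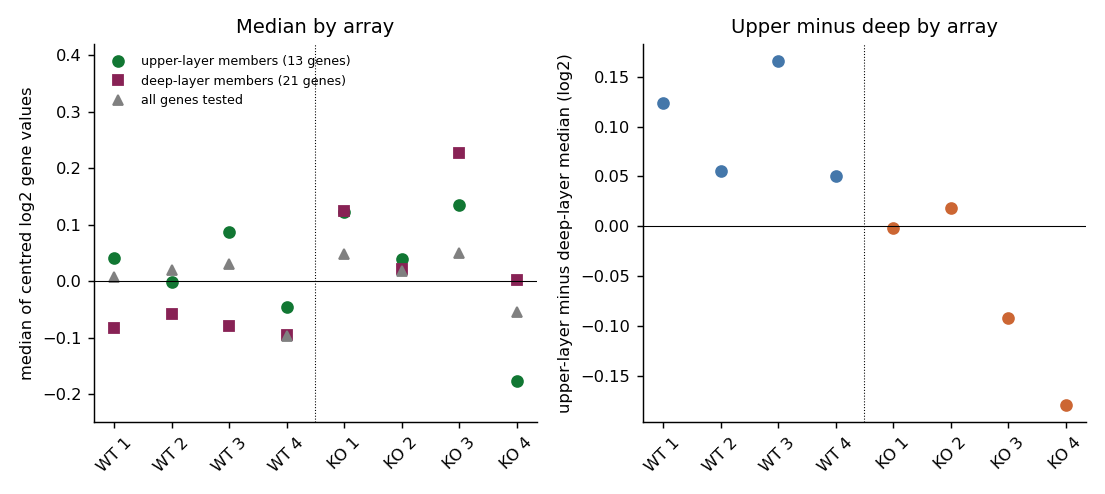
Left, median of gene values centred on each gene's mean (y axis, log2) on each of the 8 arrays for upper-layer members, deep-layer members and all genes tested. Right, the upper-layer minus the deep-layer median of each array. Deep-layer medians are at or below -0.058 log2 on the 4 wild type arrays and at or above 0.0029 log2 on the 4 Nova2 KO arrays, while upper-layer medians overlap between the groups. The deep-layer medians of wild type 4 and Nova2 KO 2 lie close to the all-gene medians of these arrays (-0.097 and 0.019 log2).

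Among the deep-layer transcription factors, 15 of 15 were above 0, against 55.4% of all genes, with a median of 0.21 log2. At an unadjusted p under 0.05 (limma), 5 were higher, against 7.86% of all genes. These are the 5 deep-layer members already named above. Foxp2, a forkhead factor of layer 6 neurons, was at 7.76, 7.91, 7.85 and 7.70 log2 on wild type arrays 1 to 4 and at 8.05, 8.09, 8.33 and 8.07 log2 on Nova2 KO arrays 1 to 4. The groups did not overlap, and Nova2 KO 3 stood above the other 3 arrays of its group. The difference was 0.33 log2 (SE 0.10, 95% interval 0.11 to 0.55, limma adjusted p = 0.265). Foxp1, its paralog, which is expressed in layers 3 to 6, was at 9.26, 9.43, 9.45 and 8.90 log2 in wild type against 9.68, 9.48, 9.79 and 9.30 log2 in Nova2 KO. Here the groups overlapped, and the lowest array of each group was number 4 (0.30 log2, SE 0.14, limma adjusted p = 0.448). With the mean over probe sets in place of the median, Foxp1 differed by 0.054 log2, and without wild type 4 by 0.18 log2.

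Fezf2, the selector gene of neurons that project below the cortex, was at 10.13, 10.01, 10.06 and 10.02 log2 in wild type against 10.50, 10.23, 10.43 and 10.22 log2 in Nova2 KO. Every Nova2 KO array was higher, by at least 0.092 log2 over the highest wild type array (difference 0.29 log2, SE 0.10, limma adjusted p = 0.293). Bcl11b, which acts after Fezf2 in the same neurons, had a wild type mean of 9.58 ± 0.14 log2 (SD, n = 4) and a Nova2 KO mean of 9.69 ± 0.21 log2, a difference of 0.11 log2 (SE 0.12) within the spread between arrays. Leaving out 1 array gave 0.041 (Nova2 KO 3) to 0.20 log2 (Nova2 KO 4). Its paralog Bcl11a differed by 0.14 log2 (SE 0.10), and by 0.077 log2 without Nova2 KO 3. Tbr1, the T-box factor of layer 6 corticothalamic neurons, was at 7.23, 7.75, 7.75 and 7.64 log2 in wild type against 7.98, 7.68, 7.91 and 7.72 log2 in Nova2 KO. Wild type 1 was the lowest array, the groups overlapped (0.23 log2, SE 0.13, limma adjusted p = 0.524), and the difference was 0.11 log2 without wild type 1.

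Sox5, a SOX factor that times the making of deep-layer neurons, was at 8.48, 8.47, 8.55 and 8.29 log2 in wild type against 8.69, 8.74, 8.68 and 8.64 log2 in Nova2 KO. The groups did not overlap (0.24 log2, SE 0.094, limma adjusted p = 0.352), but without the filter on dim probe sets the difference was 0.059 log2. Ldb2, a cofactor of LIM-homeodomain proteins, was at 10.06, 10.09, 9.89 and 10.05 log2 in wild type against 10.19, 10.19, 10.44 and 10.38 log2 in Nova2 KO, again without overlap (0.28 log2, SE 0.10, limma adjusted p = 0.318), and the mean over probe sets gave 0.17 log2. Id2, an inhibitor of basic helix-loop-helix factors that is also found in upper layers, was at 10.33, 10.43, 10.48 and 10.61 log2 in wild type against 10.66, 10.48, 11.07 and 11.18 log2 in Nova2 KO. Nova2 KO arrays 3 and 4 were high, while Nova2 KO 2 lay within the wild type range (0.38 log2, SE 0.15, limma adjusted p = 0.341).

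The other 6 deep-layer transcription regulators differed by at most 0.21 log2. Zfpm2, a GATA cofactor, differed by 0.21 log2 (SE 0.13) and Tle4, a Groucho corepressor of layer 6, by 0.18 log2 (SE 0.10). Etv1, an ETS factor of layer 5, differed by 0.13 log2 (SE 0.096), and the zinc finger gene Tshz2 by 0.16 log2 (SE 0.11). The nuclear factor I genes Nfib and Nfia, which glia express as well, differed by 0.17 (SE 0.18) and 0.035 log2 (SE 0.11). Nfib was at 0.025 log2 without wild type 4 and 0.32 log2 without Nova2 KO 4, and Nfia at -0.025 log2 without wild type 2 and 0.092 log2 without Nova2 KO 2. Zfpm2 was at 0.11 log2 without Nova2 KO 1, and Tshz2 at 0.074 log2 without Nova2 KO 3. In the full set of arrays each of these 6 differences had a 95% interval that included 0.

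The 4 deep-layer genes for signalling and surface proteins were above 0, with a median of 0.13 log2. Crym, a thyroid hormone-binding protein, was at 9.65, 9.83, 9.99 and 9.97 log2 in wild type against 9.92, 10.22, 10.24 and 10.01 log2 in Nova2 KO, with overlap (0.24 log2, SE 0.11, limma adjusted p = 0.452), and 0.11 log2 with the mean over probe sets. Pcp4, a calmodulin-binding peptide, differed by 0.16 log2 (SE 0.13), leaving out 9 probe sets that name Igsf5 as well, and Ntsr1, the neurotensin receptor of layer 6 neurons, by 0.095 log2 (SE 0.13). Without wild type 3 these were 0.093 and 0.0099 log2, and without wild type 1 Ntsr1 was at 0.21 log2. Cdh13, a cadherin without a transmembrane part, differed by 0.010 log2 (SE 0.12) and lay below 0 with quantile normalization (-0.015 log2). Of the 2 measured subplate members, from the cell layer under layer 6 that guides early axons, 1 was above and 1 below 0. Nr4a2, a nuclear receptor, differed by 0.066 log2 (SE 0.11). Ctgf, a secreted matrix protein whose current symbol is Ccn2, differed by -0.040 log2 (SE 0.11), with a 95% interval from -0.28 to 0.20 log2.

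Among the 10 upper-layer transcription regulators 6 were above and 4 below 0, with a median of 0.060 log2. Mef2c, a MADS-box factor that shapes synapse number and is also found in deeper layers and other cells, was at 11.24, 11.41, 11.25 and 10.93 log2 in wild type. On Nova2 KO arrays 1 to 4 it was at 11.58, 11.57, 11.58 and 11.56 log2, a spread of 0.0090 log2 (SD) against 0.20 log2 in wild type. All Nova2 KO arrays were above all wild type arrays (0.37 log2 or 1.29-fold, SE 0.11, 95% interval 0.13 to 0.61, limma adjusted p = 0.263). Lmo4, a LIM-only protein of upper layers and layer 5, was at 10.53, 11.03, 11.22 and 10.95 log2 in wild type against 11.26, 11.15, 11.70 and 11.24 log2 in Nova2 KO. The groups overlapped, with wild type 1 low and Nova2 KO 3 high (0.41 log2, SE 0.16, limma adjusted p = 0.342), and the mean over probe sets gave 0.098 log2.

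The POU factors of the upper-layer list were spread around 0. Pou3f1 is counted among the members known from both sides or from other cells. Pou3f2 was at 9.09, 8.80, 9.03 and 8.57 log2 in wild type against 9.27, 9.18, 9.13 and 8.89 log2 in Nova2 KO, with overlap through Nova2 KO 4 (0.24 log2, SE 0.13, limma adjusted p = 0.498), and by 0.14 log2 without wild type 4. Pou3f3 differed by 0.14 log2 (SE 0.15) and Pou3f1 by -0.053 log2 (SE 0.098). When probe sets were averaged Pou3f3 lay at -0.021 log2, and Pou3f1 lay at 0.031 log2 without the filter. Leaving out 1 array gave 0.028 (wild type 4) to 0.25 log2 (wild type 3) for Pou3f3 and -0.0997 (Nova2 KO 1) to -0.0028 log2 (Nova2 KO 4) for Pou3f1. Lhx2, a LIM-homeodomain factor, differed by 0.089 log2 (SE 0.12), with 0.018 log2 without Nova2 KO 1 and 0.18 log2 without Nova2 KO 2.

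Of the 4 other transcription regulators 3 lay below 0. Cux2, a cut-like homeodomain factor, was at 8.59, 8.81, 8.90 and 8.72 log2 in wild type against 8.57, 8.62, 8.86 and 8.46 log2 in Nova2 KO, with overlap (-0.13 log2, SE 0.11, limma adjusted p = 0.700). The size of this difference turned on single arrays: it was -0.24 log2 without Nova2 KO 3, -0.071 without Nova2 KO 4 and -0.080 without wild type 3. Its paralog Cux1 differed by 0.031 log2 (SE 0.099, 95% interval -0.18 to 0.25), and by -0.024 log2 with the mean over probe sets. Rorb, the nuclear receptor that marks layer 4, was at 8.62, 9.01, 8.87 and 8.26 log2 in wild type against 8.70, 8.71, 8.22 and 8.24 log2 in Nova2 KO. Wild type 4 was as low as Nova2 KO 3 and 4 (-0.22 log2, SE 0.17, limma adjusted p = 0.654), and without it the difference was -0.37 log2, against -0.11 log2 without wild type 2, -0.14 without Nova2 KO 3 and -0.15 without Nova2 KO 4. Bhlhe22, a helix-loop-helix factor of the cortical map, was at 8.91, 8.67, 9.04 and 8.85 log2 in wild type against 8.76, 8.82, 8.51 and 8.69 log2 in Nova2 KO, with overlap. Its difference of -0.17 log2 (SE 0.11, limma adjusted p = 0.577) was 0.040 log2 with the mean over probe sets and -0.11 log2 without Nova2 KO 3.

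The upper-layer genes for signalling and surface proteins were 1 above and 2 below 0, with a median of -0.062 log2. Rasgrf2, a Ras exchange factor of layers 2 and 3, differed by -0.062 log2 (SE 0.099), and Plxnd1, a semaphorin receptor, by -0.11 log2 (SE 0.12). Plxnd1 rested on Nova2 KO 4, which was at 9.10 log2 while the other 3 arrays of its group lay at 9.54 to 9.56 log2; without it the difference was 0.0076 log2. Mdga1, a surface protein with a lipid anchor, differed by 0.17 log2 (SE 0.17), or by 0.073 log2 without wild type 4 and 0.35 log2 without Nova2 KO 4, and was low on both arrays numbered 4 (8.20 log2 in wild type against 8.10 log2 in Nova2 KO).

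**Figure D3:**
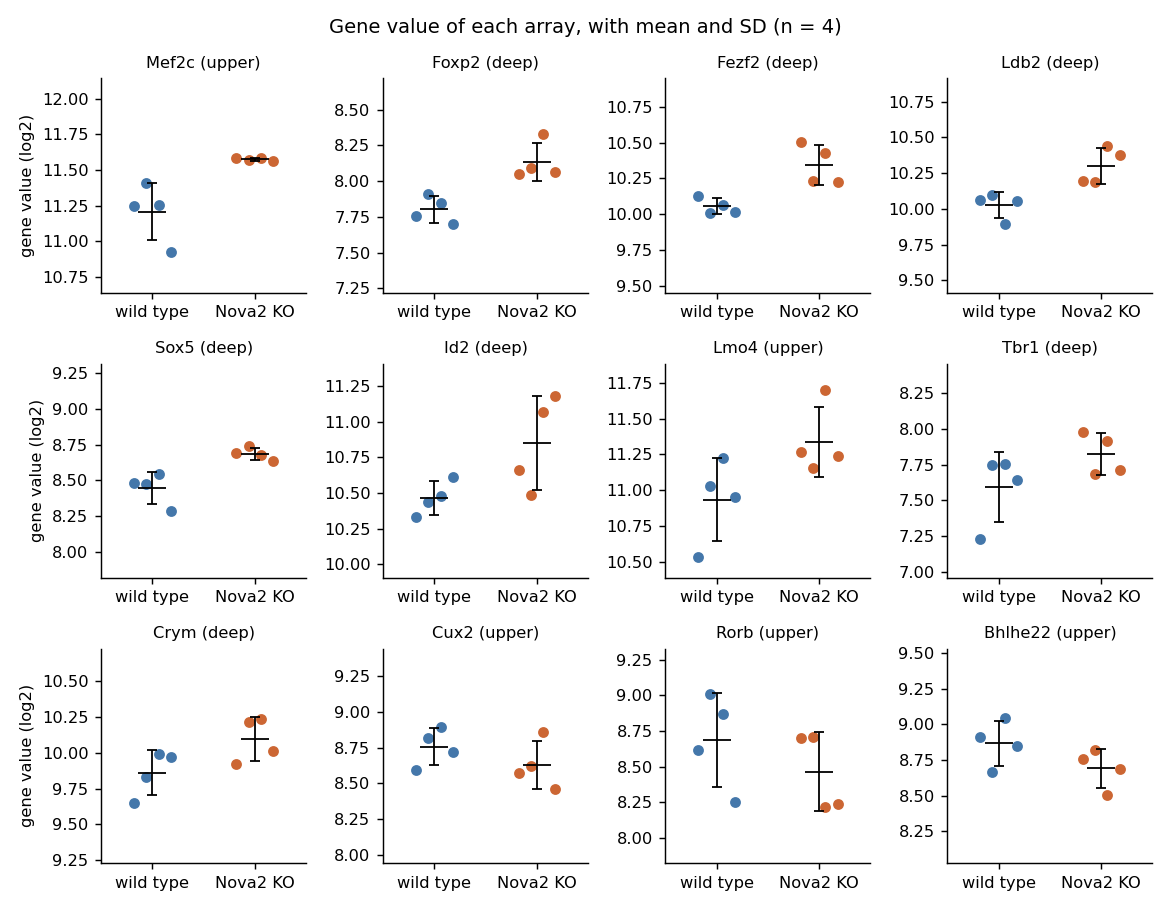
Gene value of each array (points, y axis in log2, each panel spanning the same log2 range) for 12 layer genes, with mean and SD of the 4 arrays per group. Mef2c, Foxp2, Fezf2, Ldb2 and Sox5 separate the groups, with the 4 Mef2c values in Nova2 KO at 11.56 to 11.58 log2, while the other 7 panels show overlap.

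Single probe sets were compared next, since an exon array reads a gene at several places. Of the 373 kept probe sets of deep-layer members 75.9% were higher in Nova2 KO (median 0.14 log2), of the 286 of upper-layer members 49.3% (median -0.0065 log2), and of all kept probe sets 51.1% (median 0.0061 log2). Probe sets of 1 gene share its transcript, so these shares describe the members and are not counts of independent tests. For each gene the probe sets were also parted into brighter and dimmer ones at the median of their means over the 8 arrays. The brighter ones had a median above 0 in 18 of 21 deep-layer members and the dimmer ones in 19, against 52.9% and 57.8% of all genes. In the upper-layer members this was 5 of 13 for either part. The single brightest probe set was above 0 in 14 of the 21 deep-layer members, with a median of 0.049 log2, against 7 of 13 upper-layer members (median 0.0066 log2) and 5920 of 11992 genes (median -0.0026 log2). It was below 0 in the other 7, among them Foxp2 (-0.11 log2) and Crym (-0.13 log2), whose gene values were above 0.

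The members varied in how evenly their probe sets moved with the gene value. Every probe set had the sign of the gene value in Mef2c (35 of 35), Fezf2 (8 of 8), Pcp4 (5 of 5) and Id2 (4 of 4), and most for Etv1 (20 of 21), Ldb2 (13 of 15), Foxp2 (21 of 26) and Sox5 (25 of 32). By contrast, only 6 of 15 did for Tshz2, 3 of 7 for Pou3f3 and for Ctgf, and 22 of 48 for Cux1, so that their gene differences rest on which probe set sets the median.

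On the signal scale no member probe set passed over all kept probe sets (limma), at which 0.00681% were called, and the lowest adjusted p of a member was 0.217. At an unadjusted p under 0.05, 76 of the 659 passed, 64 higher and 12 lower in Nova2 KO, which is 11.5% against 6.68% of all kept probe sets. All 4 Nova2 KO values lay above the wild type values in 55 of the 659, against 3.05% of all. The largest differences were those of a pair of Mef2c probe sets. Probe set 4783026 was at 7.85, 7.90, 7.14 and 7.38 log2 in wild type against 8.76, 8.54, 9.15 and 8.73 log2 in Nova2 KO, and probe set 4827019 was at 7.82, 7.89, 7.84 and 7.68 log2 and at 9.12, 8.71, 9.37 and 8.59 log2. Neither overlapped between the groups. They differed by 1.22 log2 (2.34-fold, SE 0.21, limma adjusted p = 0.257) and 1.14 log2 (2.20-fold, SE 0.18, limma adjusted p = 0.217), where the gene value differed by 0.37 log2 and the brightest Mef2c probe set by 0.20 log2. Of the other probe sets without overlap, 5491032 of Tbr1, chosen after its values were seen, was at 6.85 to 7.18 log2 in wild type against 7.51 to 7.91 log2 in Nova2 KO (0.69 log2, SE 0.14, limma adjusted p = 0.381).

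**Figure D4:**
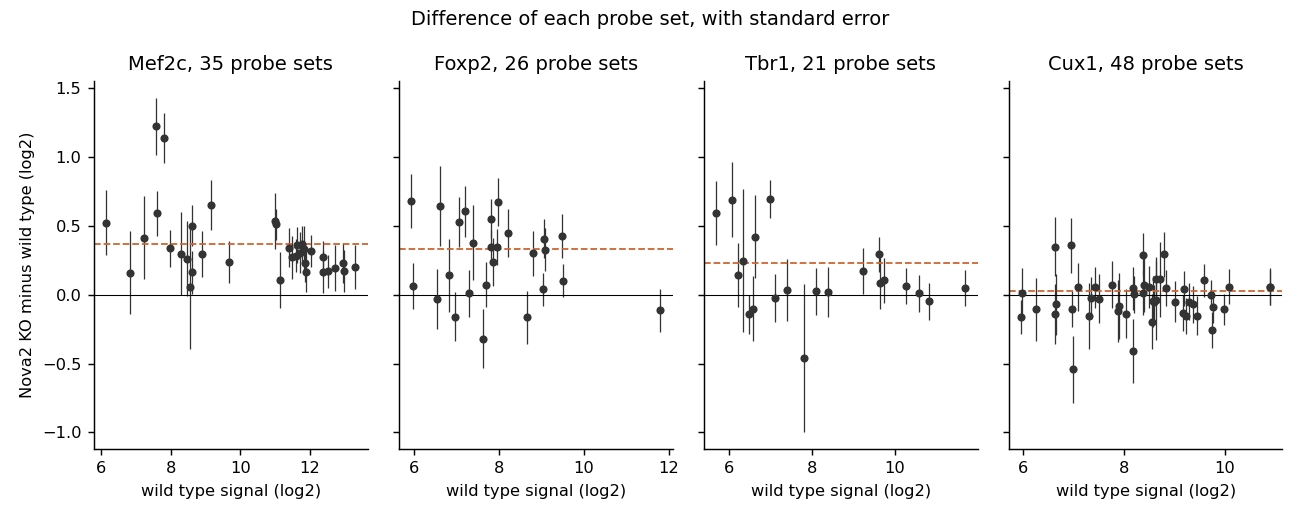
Difference of each kept probe set between Nova2 KO and wild type (y axis, log2, bars are the limma standard error) against its mean wild type signal (x axis, log2) for Mef2c, Foxp2, Tbr1 and Cux1; the dashed line is the difference of the gene value. All 35 Mef2c probe sets lie above 0 and 2 of them above 1.1 log2, while the 48 of Cux1 lie around 0 and the brightest of Foxp2 and Tbr1 lie at -0.11 and 0.049 log2.

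For exon usage, the gene value was subtracted from the log2 signal of each probe set on the same array. This index is higher where an exon contributes more signal for the same amount of gene. No member passed by gene (Simes p over its probe sets, adjusted over all genes), at which 0.161% of genes were called, and no member probe set passed, where 0.0133% of all were called (limma). At an unadjusted p under 0.05, 63 of the 655 member probe sets passed, 9.62% against 6.76% of all. Id2, with 4 probe sets, had too few for this measure. The member with the lowest Simes p was Nr4a2 (adjusted p = 0.360). Its probe set 5593547 was dim: its wild type mean of 5.83 ± 0.24 log2 (SD, n = 4) lay just under the filter value of 5.86 log2, and its Nova2 KO mean was 6.59 ± 0.21 log2. The probe set thus passed the filter only through its Nova2 KO values. The index differed by 0.69 log2 (SE 0.12) without overlap. Like the leading probe sets below, it had the lowest p of its gene, so lack of overlap follows in part from that choice.

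Mef2c was next (adjusted p = 0.579). The index of probe set 4783026 was -3.40, -3.51, -4.11 and -3.55 log2 in wild type against -2.82, -3.03, -2.43 and -2.84 log2 in Nova2 KO, a difference of 0.86 log2 (SE 0.18), and that of 4827019 differed by 0.77 log2 (SE 0.17). The values did not overlap between the groups, and both probe sets stayed well below the gene value in either group. With diffSplice of limma, which pools the spread over the probe sets of a gene, 2 of 33 members (6.06%) passed, against 3.95% of all genes, and for single probe sets 0.259% of all passed. The members were Mef2c (adjusted p = 0.0242) and Ldb2 (adjusted p = 1.69e-05). The Mef2c call rested on 4783026 (adjusted p = 0.0139) and 4827019 (adjusted p = 0.0458). The Ldb2 call rested on probe set 5020119, which was dim and uneven, at 5.96 to 7.11 log2 in wild type against 4.19 to 6.69 log2 in Nova2 KO. The lowest array, Nova2 KO 1, lay near the floor of 4 log2. Its Nova2 KO mean of 5.67 log2 lay under the filter value of 5.86 log2, and its wild type mean of 6.62 log2 above it. In the main exon usage test Ldb2 did not pass (limma, Simes adjusted p = 0.778). There the index of this probe set differed by -1.22 log2 (SE 0.49) with overlap.

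The leading probe sets of the next 6 members did not pass either. Relative to their gene, those of Rorb (5612232, 0.89 log2, SE 0.22), Bhlhe22 (5472767, 0.53 log2, SE 0.14) and Nfib (4833213, 0.35 log2, SE 0.094) were higher in Nova2 KO on all 4 arrays than on any wild type array. The Rorb probe set was dim, at 6.32 ± 0.63 log2 in wild type. The index of Foxp1 probe set 5465682 was -1.53, -1.48, -1.52 and -1.18 log2 in wild type against -2.22, -1.70, -2.41 and -1.94 log2 in Nova2 KO, lower without overlap (-0.64 log2, SE 0.16, limma adjusted p = 0.579). With the mean over probe sets as gene value the Foxp1 and Bhlhe22 differences were -0.39 and 0.32 log2. Probe sets of Bcl11b (4347760, -0.52 log2, SE 0.15) and Lhx2 (4822271, -0.44 log2, SE 0.15) were lower with overlap. Each leading probe set had the lowest p of its gene, so lack of overlap follows in part from that choice. The share of probe sets without overlap was not computed for the index over all probe sets.

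Layer genes outside the list were taken from further lists. Like the members, these lists were chosen with earlier results of these data known, so they are no independent check of the layer contrast. Of 14 measured deep-layer and subplate genes among 20 listed, 11 were above 0, with a median of 0.10 log2. Sla, a Src-like adaptor protein known from deep-layer neurons, passed over all genes: it was at 9.72, 9.60, 9.45 and 9.49 log2 in wild type against 10.27, 10.13, 10.37 and 10.11 log2 in Nova2 KO. It rose by 0.66 log2 (SE 0.10, limma adjusted p = 0.0251), but its limma adjusted p was above the threshold in 10 of 18 other settings: with median centring (0.0974) and whenever any 1 array (0.0509 to 0.112) or both arrays numbered 4 (0.0764) were left out. Moxd1, a copper-dependent monooxygenase, and Gnb4, a G protein beta subunit, differed by 0.33 log2 (SE 0.10) and 0.27 log2 (SE 0.091) without overlap, and neither passed. Of 9 measured genes of the upper layers and layer 4 among 12 listed, 3 were above 0, with a median of -0.065 log2. Wfs1, a protein of the endoplasmic reticulum, was at 9.42, 9.58, 9.72 and 9.50 log2 in wild type against 9.22, 9.03, 9.26 and 8.92 log2 in Nova2 KO, lower on every array (-0.45 log2, SE 0.11, limma adjusted p = 0.185). Kcnh5, a potassium channel, differed by -0.40 log2 (SE 0.19) with overlap, by -0.26 log2 without Nova2 KO 4 and by -0.21 log2 with the mean over probe sets. Layer 1 and Cajal-Retzius genes had 3 of 4 above 0 (median 0.086 log2).

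Markers of other cell types and stages, from lists chosen in the same way, were read beside the layer genes. Excitatory neuron genes had 5 of 8 above 0, with a median of 0.016 log2, or 4 of 7 and 0.0076 log2 without Tbr1, which is also a deep-layer member. They lay on both sides: Camk2a, a kinase of mature synapses, differed by -0.35 log2 (SE 0.11, limma adjusted p = 0.266), and Neurod6, a helix-loop-helix factor, by 0.29 log2 (SE 0.13, limma adjusted p = 0.411). The glutamate transporter genes Slc17a7 and Slc17a6, named after their values were seen, differed by -0.19 and -0.23 log2. The list had a mean level of 9.93 to 10.03 log2 in wild type against 9.92 to 10.08 log2 in Nova2 KO. Genes of immature neurons were all above 0 (10 of 10), with a median of 0.18 log2, and their mean level was 11.01 to 11.10 log2 in wild type against 11.29 to 11.37 log2 in Nova2 KO, without overlap. In that list Dcx, a microtubule-binding protein of young neurons, rose by 0.81 log2 (SE 0.11, limma adjusted p = 0.0133). Its adjusted p (limma) was 0.0563 to 0.0850 without wild type 1 or without Nova2 KO 1, 2 or 3, and 0.0939 with the mean over probe sets. Dpysl3 and Stmn1 differed by 0.45 and 0.30 log2. Dpysl3 did not pass (limma adjusted p = 0.131) but did with the replicate block (0.0497) and with the eBayes trend (0.0393). Interneuron markers had 8 of 10 above 0 (median 0.14 log2), and their mean level was 9.06 to 9.18 log2 in wild type against 9.13 to 9.40 log2 in Nova2 KO. Their part in the layer gene differences was not tested.

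Markers of glia, endothelium and meninges lay mostly below 0. Oligodendrocyte markers had 10 of 11 below 0, with a median of -0.36 log2 and a mean level of 9.22 to 9.35 log2 in wild type against 8.86 to 9.07 log2 in Nova2 KO, and the myelin gene Mog fell by 0.77 log2 (SE 0.13, limma adjusted p = 0.0301). This call was lost in 11 of 18 other settings, among them median centring (limma adjusted p = 0.167) and each setting that left out 1 array except wild type 2. Endothelial markers had 6 of 6 below 0 (median -0.11 log2), microglia markers 5 of 6 (median -0.11 log2), astrocyte markers 6 of 8 (median -0.071 log2) and meninges markers 3 of 5 (median -0.071 log2). Striatum markers had 2 of 4 above 0 (median -0.12 log2), or 1 of 3 (median -0.27 log2) without Foxp2, which is also a deep-layer member. Their mean level was 9.47 log2 on Nova2 KO 3 against 8.96 to 9.12 log2 on the other Nova2 KO arrays and 9.23 to 9.28 log2 in wild type. Nova2 KO 3 was also the array with the highest deep-layer median and the highest Foxp2 value, and without it the deep-layer median was 0.12 log2 with 18 of 21 members above 0 and the Foxp2 difference was 0.27 log2. Thalamus markers had 2 of 5 above 0 (median -0.032 log2), and both measured hippocampus markers, Wfs1 among them, were below 0 (median -0.24 log2). Both measured red blood cell markers were below 0 (median -0.55 log2), and of the choroid plexus markers 1 of 2 was above 0 (median 0.0040 log2). Whether any of these moved with the layer genes through cell numbers was not tested.

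**Figure D5:**
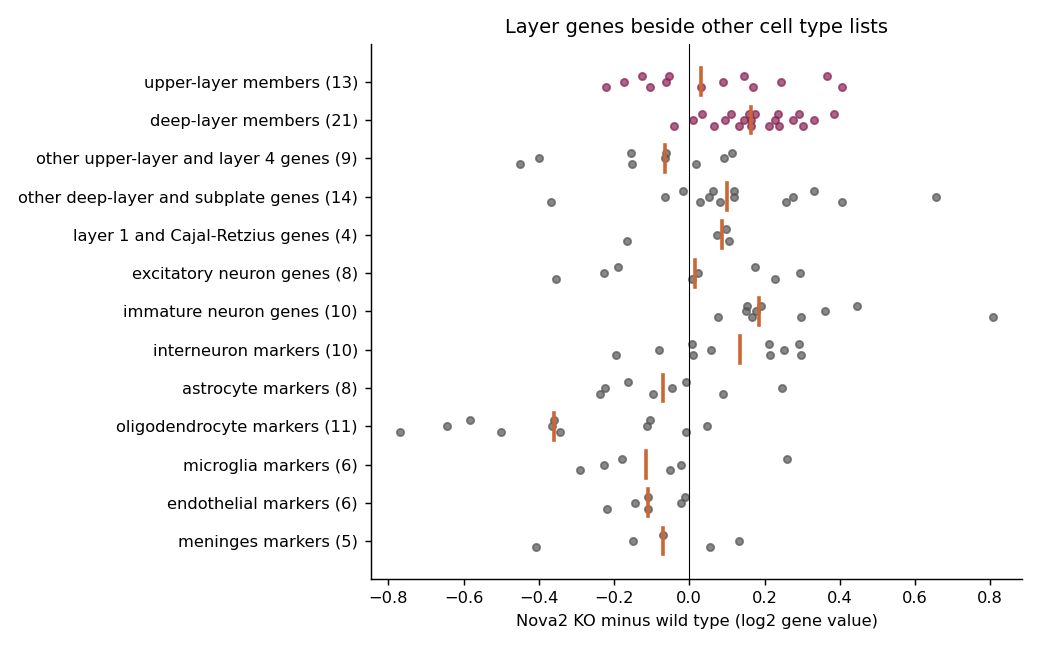
Difference of each measured gene between Nova2 KO and wild type (x axis, log2 gene value) for the upper-layer and deep-layer members and for 11 other lists, with the number of measured genes in brackets and the median of each list as a vertical bar. The medians of the deep-layer members (0.17 log2) and of the immature neuron genes (0.18 log2) lie to the right of 0, and that of the oligodendrocyte markers (-0.36 log2) lies to the left.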

How the data were processed

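The values were deposited by the authors as 1 log2 signal per probe set and array for 8 arrays. Per the submitters' processing notes they were made with PLIER, a model-based probe set summary; its version, background correction, normalization and the genome build are not given in the sources used here; nothing further was done to them. Since an array has no sequencing depth, precision is set by how many arrays there were. Per the design text each array was 1 biological replicate.

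Gene names of probe sets came from the platform annotation, with older symbols updated through the RefSeq gene table of GRCm38.p6. Those with an 8-array mean above the 25th percentile of all such means (5.86 log2) were kept, and gene values needed 3 or more kept probe sets, exon usage 5 or more. All fits used lmFit and eBayes of limma 3.58.1 (R 4.3.3, data.table version 1.17.8) as Nova2 KO minus wild type over all genes or probe sets. Tests were two-sided, with Benjamini-Hochberg adjustment at 0.05. Only the main gene expression and exon usage fits were also run on simulated data, with values drawn independently for each gene or probe set. Shifts shared by a whole array were not simulated. Values in every array are given for the 6 upper-layer and 8 deep-layer members with the lowest p. Exon usage probe sets are those of the 8 members with the lowest Simes p, and from other lists genes past the threshold and at most 2 more with the lowest p are named. Other filters, normalizations, offsets, gene summaries, covariates, a replicate block, diffSplice and leaving out arrays were tried as alternatives. The members and lists were chosen with earlier results of these data known.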

Additional observations from a re-analysis of the deposited data

Results flagged for a closer look

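In each group of 4 arrays the highest and the lowest value were compared with the rest, over 90 groups of values (layer genes, leading exon usage probe sets and layer medians). An array stood apart in 4 of them, and chance alone sets apart about 1 group in 20. Plxnd1 was at 9.10 log2 on Nova2 KO 4, with the other 3 Nova2 KO arrays at 9.54 to 9.56 log2. Mdga1 was at 8.20 log2 on wild type 4, with the other 3 wild type arrays at 8.55 to 8.62 log2. Foxp2 was at 8.33 log2 on Nova2 KO 3, above the other 3 Nova2 KO arrays at 8.05 to 8.09 log2. The exon usage index of Foxp1 probe set 5465682 was -1.18 log2 on wild type 4 and -1.53 to -1.48 log2 on the other 3 wild type arrays.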

How the results depend on the processing

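In the 18 other settings run for gene expression, 0 members passed, as in the main setting (7 at an unadjusted p under 0.05 with limma), and the lowest adjusted p of a member in any of them was 0.0903 (Mef2c, array median as a covariate). A replicate block, the number in the sample titles, gave 0 members, a lowest member adjusted p of 0.103 and 80 genes in all, against 25 without it; deviations of arrays with the same number correlated at 0.14, 0.33, 0.024 and 0.57. Wild type 1, 2 and 4 correlated best with the Nova2 KO array of their own number and wild type 3 with Nova2 KO 2. Not every value was above 0.1, and the main setting did not take the numbers to pair the mice. Whether they mark pairs or a shared batch is not settled by these correlations. In exon usage the block gave 3 genes in all, against 18 without it. In exon usage, diffSplice gave 2 members of 33, where it called 3.95% of all genes, and the other 16 settings 0. The deep-layer median ran from 0.12 (without Nova2 KO 3) to 0.24 log2 (without Nova2 KO 4) and the deep-layer count from 17 (filter at the 50th percentile) to 21. The upper-layer median ran from -0.020 to 0.063 log2 and the upper-layer count from 5 (mean over probe sets) to 9 (without Nova2 KO 4). Their difference ran from -0.19 (without wild type 1) to -0.10 log2 (without Nova2 KO 3), and was -0.14 log2 when members known from both sides or from other cells were left out.

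Signs turned for 13 members, none past the threshold. The largest of them in the main setting were Bhlhe22 (-0.17 log2), Tshz2 (0.16) and Pou3f3 (0.14), near the size of the deep-layer median (0.17 log2). With the mean over probe sets signs turned for Bhlhe22 (0.040 log2), Ctgf (0.087), Cux1 (-0.024), Lhx2 (-2.98e-05), Pou3f3 (-0.021) and Tshz2 (-0.017). With the filter at the 50th percentile they turned for Cdh13 (-0.065), Nr4a2 (-0.020), Ntsr1 (-0.027) and Pou3f3 (-0.0184), and without a filter for Cux1 (-0.00755) and Pou3f1 (0.031). Cdh13 was at -0.015 with quantile normalization and -0.038 with offset 1. Leaving out 1 array at a time, the differences that turned ran from -0.0357 to 0.104 for Cdh13, -0.0990 to 0.0287 for Ctgf, -0.0195 to 0.0728 for Cux1, -0.0249 to 0.0919 for Nfia, -0.00203 to 0.134 for Nr4a2, -0.146 to 0.00758 for Plxnd1 and -0.0976 to 0.00370 for Rasgrf2. The cause of these turns was not tested. For probe sets near the floor of 4 log2 the signal limits the size of a difference.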
